A study of Mus musculus with 6 samples.

Results

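Cassette exons are internal exons that a spliced transcript either keeps or leaves out whole. In the deposited event tables each one was represented by a pair of values, the level of transcripts that include the exon (included form) and of transcripts that skip it between the same neighbouring exons (skipped form), in fragments per kilobase of transcript per M (mega) mapped fragments (FPKM). Of 315379 splicing, first-exon and last-exon events listed for every library, 23824 pairs were of this kind. A pair was kept when its summed level averaged at least 1 FPKM over the 6 libraries and when each form was above 0 in at least 1 library. The rule kept 9933 pairs, or 41.7% of those listed. Of 12011 pairs over the level limit, 2078 were dropped because a form was listed at 0 in all 6 libraries, the skipped form in 881 and the included form in 1197. The members just inside the limit were exons of Gtpbp4 and Vwa5b2, each with a mean of 1.0 FPKM, and those just outside were exons of Nhlrc4 and Cyp4f13, each with a mean of 0.999 FPKM. The members were thus chosen by their measured levels and by the presence of both forms, which are given below as a description.

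The 6 libraries came from tissue labelled hippocampus of male C57BL/6 mice, all healthy and 14 months old at the start. Mice of the DHT group (3 libraries) received dihydrotestosterone, an androgen that aromatase does not turn into oestrogen, by injection under the skin every morning for 14 days, and mice of the oil group (3 libraries) received medical corn oil, the vehicle, in the same way. The labels give no dose in weight, no batch and no pairing. The libraries were made for circular RNAs (circRNAs), closed rings in which the end of an exon is spliced back to an earlier start, and the sample descriptions also call the DHT group a testosterone group. Nothing in the labels ties each library to a separate animal; a p-value below therefore reflects variation among these libraries only, which may be technical.

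Inclusion was taken as the included form divided by the sum of both forms, so 100% means that the skipped form was listed at 0. As background, an exon is kept when the splicing machinery recognises both of its ends, the acceptor site with its AG at the upstream end and the donor site with its GT at the downstream end. Proteins that bind the exon or the introns beside it, such as those of the NOVA, RBFOX, PTBP and CELF families, favour or hinder that recognition, and neurons use more such exons than most cells, many of them in synaptic and cytoskeletal genes. An exon whose length is a multiple of 3 can be skipped without shifting the reading frame. The shortest ones, called microexons, often add a few amino acids to a protein surface.

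The coordinates placed 94.6% of the 9544 pairs that have a RefSeq gene record within the GRCm38 bounds of that gene. Of the 59 exon starts that lie inside a RefSeq promoter window, 59 were preceded by AG, and 30 of the 32 exon ends there were followed by GT. Of the exons, 23 lay whole inside such a window, and 5 of them, chosen after their values were seen, are printed here to show what an included stretch and its splice sites look like. They run 5′ to 3′ on the gene's strand, with the exon in capitals and the end of the upstream intron and the start of the downstream intron in lower case, from RefSeq's GRCm38.p6 annotation.
G3bp2: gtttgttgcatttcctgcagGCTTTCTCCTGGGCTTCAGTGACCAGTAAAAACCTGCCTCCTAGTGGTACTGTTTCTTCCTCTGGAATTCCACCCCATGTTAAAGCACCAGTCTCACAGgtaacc
Mff: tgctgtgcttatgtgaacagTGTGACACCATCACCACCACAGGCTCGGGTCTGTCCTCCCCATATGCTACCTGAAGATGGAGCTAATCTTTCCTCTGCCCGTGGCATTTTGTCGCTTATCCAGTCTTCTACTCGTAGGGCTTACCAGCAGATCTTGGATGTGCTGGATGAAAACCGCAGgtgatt
Dclk2: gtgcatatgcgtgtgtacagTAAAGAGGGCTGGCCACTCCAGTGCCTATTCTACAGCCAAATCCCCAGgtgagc
Cdk19: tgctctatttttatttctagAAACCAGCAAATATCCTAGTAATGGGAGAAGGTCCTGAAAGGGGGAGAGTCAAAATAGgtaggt
Hdac4: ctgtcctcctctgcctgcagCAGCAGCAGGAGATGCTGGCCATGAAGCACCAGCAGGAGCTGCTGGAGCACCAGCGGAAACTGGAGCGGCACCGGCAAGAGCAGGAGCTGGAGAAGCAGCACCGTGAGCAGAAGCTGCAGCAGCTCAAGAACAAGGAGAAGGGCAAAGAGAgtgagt
The G3bp2 exon (chr5:92063337-92063435, minus strand, 99 bases) belongs to a stress granule protein. Its inclusion was 100, 100 and 97.7% in the DHT libraries and 99.5, 94.3 and 64.1% in the oil libraries. The Mff exon (chr1:82741818-82741976, plus strand, 159 bases), of a mitochondrial fission factor, was between 99 and 99.7% in all 6. Those 2 exons have lengths that are multiples of 3. The Dclk2 exon (chr3:86830824-86830871, minus strand, 48 bases), also a multiple of 3, belongs to a doublecortin-like kinase that binds microtubules. It was included at 87.3, 81.2 and 88.0% with DHT and at 64.7, 73.1 and 75.7% with oil, so its groups did not overlap, with an unadjusted p of 0.0186 by limma. The Cdk19 exon (chr10:40454015-40454072, plus strand, 58 bases), of a Mediator kinase, and the Hdac4 exon (chr1:92012669-92012819, minus strand, 151 bases), of a histone deacetylase, are not multiples of 3. The Cdk19 exon ranged from 41.0 to 84.8% over the libraries and the Hdac4 exon from 77.5 to 100%.

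The 9933 pairs described 9629 distinct exons in 5100 loci, since an exon can be listed with more than 1 set of neighbours, and the pair with the highest level stands for each exon below. A gene symbol was available for 9899 pairs, while 26 pairs carried no gene identifier. Most loci (2701) held 1 member exon and 249 held at least 5. Exons of 1 locus share transcripts and are not independent: 1471 pairs had the same skipped-form values in every library as another pair of their locus, and 304 the same included-form values.

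Exons were mostly used at the extremes. Mean inclusion was under 1% for 908 exons and from 1 to 10% for 1521, and it was from 90 to 99% for 2282 and at least 99% for 1557. Between 10 and 90% lay 3361 exons, 34.9% of all. Their length was a multiple of 3 in 58.8%, against 45.9% of exons with inclusion under 10% and 44.1% of those over 90%. Exons ran from 3 to 11664 bases with a median of 102. Among 527 exons of at most 27 bases, here called microexons, 440 (83.5%) were a multiple of 3, and among the 295 microexons of intermediate inclusion the share was 86.8%. The share was also higher at intermediate inclusion among longer exons, at 56.1% of 3066. These shares are descriptions across exons, some of which share a locus.

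**Figure D1:**
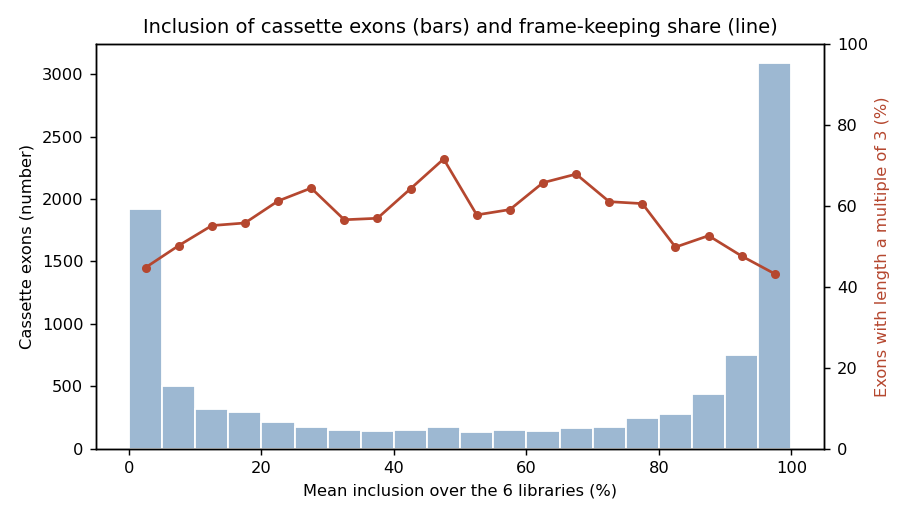
Number of cassette exons (bars, left axis) in classes 5 points wide of mean inclusion over the 6 libraries (horizontal axis, %), with the share of exons in each class whose length is a multiple of 3 (line, right axis, %). The highest bars stand at the ends of the scale, and the line is highest in between. From 10 to 90%, 58.8% of the exons have a length that is a multiple of 3. Whether an exon is coding was not checked.

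The inclusion of an exon varied widely between libraries of the same group. The median within-group standard deviation (SD, over n = 3 libraries a group) was 5.57 percentage points over all exons and 15.8 points over those of intermediate inclusion. The highest and lowest of the 6 libraries lay a median of 14.2 points apart, and 40.9 points apart for intermediate exons. In 669 exons the DHT libraries alone lay over 50 points apart, and in 654 the oil libraries did. The spread of intermediate exons was largest at low level: the median SD was 21.9 points at 1 to 2 FPKM (852 exons), 15.6 at 2 to 5 (1180), 12.9 at 5 to 10 (742), 12.1 at 10 to 50 (557) and 12.7 at 50 FPKM or more (30). Both forms were above 0 in every library for 3869 pairs (39.0%). An exact 0 can be a failed estimate of the form, so values of named exons are mostly given library by library. The means over the 6 libraries, which set the inclusion classes, include such zeros.

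**Figure D2:**
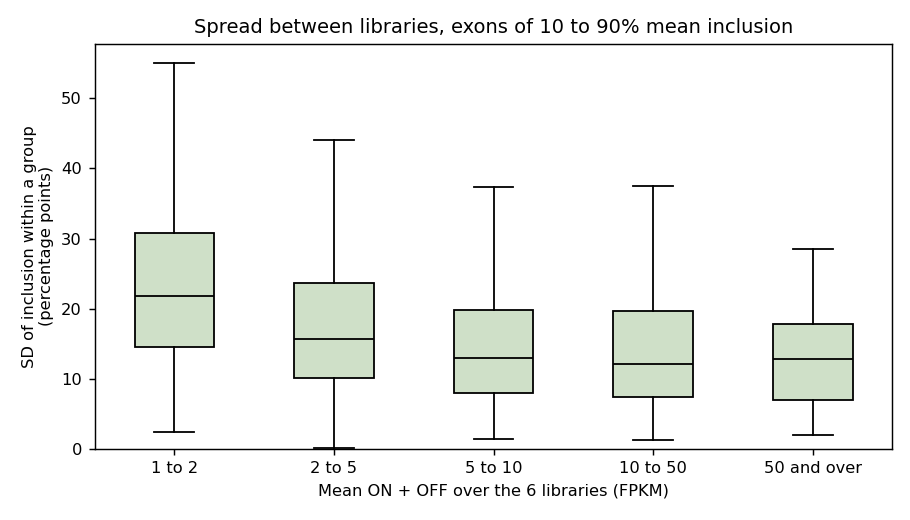
Within-group SD of inclusion (vertical axis, percentage points) of exons with a mean inclusion from 10 to 90%, by the mean summed level of both forms (horizontal axis, FPKM). Boxes span the quartiles with the median as a line, whiskers reach 1.5 box lengths, and outliers are not drawn; the medians go from 21.9 points in the lowest class to between 12.1 and 12.9 in the classes from 5 FPKM up.

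Exons of intermediate inclusion and at least 10 FPKM at the far ends of that spread show what the values look like. The Gnas exon (chromosome 2, 174300431 to 174300525, 95 bases), of the stimulatory G protein alpha subunit locus, was included at 100, 0 and 0% in the DHT libraries and at 0, 100 and 55.3% in the oil libraries. The Prkcb exon (chromosome 7, 122627656 to 122627871), of protein kinase C beta, was at 0, 5.96 and 100% with DHT and at 66.4, 0 and 100% with oil. An exon of Rian, a long non-coding RNA (chromosome 12, 109656788 to 109656831), was at 0, 83.2 and 100% with DHT and at 82.7, 77.8 and 0% with oil. In each of these exons the included form was listed at 0 in at least 1 library of each group, and inclusion was over 50% in at least 1 other library of the same group. Few intermediate exons were steady, with 9 whose 6 libraries lay within 5 points. The narrowest range among those of at least 10 FPKM was that of a 15-base exon of Actr2 (chromosome 11, 20098737 to 20098751), a subunit of the Arp2/3 complex that branches actin filaments, at 25.4, 26.8 and 23.5% with DHT and 25, 24.8 and 24.2% with oil. A 69-base exon of Rims1, an organiser of the presynaptic release site, stayed between 64.3 and 68.3%, and a 231-base exon of Map4k4, a kinase, between 83.0 and 87.3%.

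The exon with the highest summed level was one of Mbp, the myelin basic protein (78 bases, chromosome 18, 82561778 to 82561855), with a mean of 252 FPKM. Its inclusion was 6.42, 25.3 and 7.49% with DHT and 0.307, 7.50 and 6.43% with oil, with DHT library 2 above the others. The Camk2a exon (33 bases), of the alpha subunit of the calcium and calmodulin dependent kinase of synapses, ranged from 6.78 to 49.0% with DHT and from 0.325 to 53.2% with oil. By contrast a 31-base exon of Calm2, a calmodulin gene, was at 99.6 to 100% in all 6 libraries, and a 174-base exon of Chn1, a Rac-regulating protein, at 99.7 to 100%. An exon of Actb (beta-actin) and an exon of Gm49759 were near the other end, at no more than 0.752 and 0.971% in any library. Calm2, Actb and Aldoa have near-identical copies elsewhere in the genome, and the sources used here do not say how the authors' values divide reads among copies. The same holds for overlapping genes on opposite strands.

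Some loci held many cassette exons. Snurf, at the imprinted locus that also encodes a splicing protein, had 21, with 11 of intermediate inclusion and 13 of a length that is a multiple of 3. Ank2, an ankyrin that ties membrane proteins to the skeleton, had 15, of which 14 were multiples of 3. Rims2, a relative of Rims1, had 12 with 9 multiples of 3, and Wnk1, a kinase of ion transport, had 12 with 10. In Ank2 the member exons ran from 12 to 6198 bases and their mean inclusion from 0.195 to 99.1%. A 36-base Ank2 exon (chromosome 3, 126971003 to 126971038) was steady, at 11 to 15.9% with DHT and 14.4 to 21.5% with oil. A 99-base exon of the same gene (chromosome 3, 127029219 to 127029317) was at 0, 37.9 and 61.8% with DHT and at 49.0, 0 and 100% with oil. The locus Snurf had no exon with an unadjusted p under 0.05 for DHT against oil.

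The circRNA lists of the same libraries gave a second readout of the exons, which the rule did not use. Of the 9629 exons, 2393 (24.9%) lay within the genomic span of a listed circRNA on the same strand. A start or an end was shared with a circRNA by 1118 (11.6%). Whether an exon inside such a span was kept in the circle was not tested. Exons that shared a start or an end with a circRNA made up 4.12% of those with inclusion under 10%. They were 12.6% of those from 10 to 90% and 15.5% of those over 90%. Abundance and exon length were not matched in these shares. The sources used here do not say whether reads of circRNAs also counted towards the included form. Of the exons, 62 matched a circRNA of exactly that exon. The highest, in the gene listed as ENSMUSG00000118608 (chromosome X, 61183248 to 61186174), had 22256 back-splice reads over the 6 libraries and a mean inclusion of 98.8%. Exons of Pcmtd1 (404 reads), Akap6 (295), Pclo (270), Qrich1 (153) and Shank3 (139) followed among genes with a symbol, all with a mean inclusion over 90%. An 801-base exon of Ncam1, a neural cell adhesion molecule (chromosome 9, 49506853 to 49507653), had 134 back-splice reads, 13, 17 and 31 with DHT and 17, 25 and 31 with oil, and its mean inclusion was 37.3%.

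The main comparison asks whether inclusion differed between DHT and oil. The log2 ratio of included to skipped form, after 0.5 FPKM was added to each, was fitted for all 9933 pairs with limma, and p-values were adjusted over all of them by the method of Benjamini and Hochberg. No pair passed an adjusted p under 0.05 (0 of 9933, 0.0%), and the smallest adjusted p was 0.308. At an unadjusted p under 0.05 there were 480 pairs (4.83%), 244 higher with DHT (2.46%) and 236 lower (2.38%), where 496.65 would be expected if no pair differed. The groups did not overlap in 714 pairs (7.19%), with DHT higher in 354 (3.56%) and lower in 360 (3.62%). Counted once per exon, 463 of 9629 exons (4.81%) had an unadjusted p under 0.05, 237 higher (2.46%) and 226 lower (2.35%) with DHT. The groups of 697 exons (7.24%) did not overlap, with DHT higher in 349 (3.62%) and lower in 348 (3.61%). The median difference in the log2 ratio was 0.02 and the median standard error (SE) of a difference 0.43. Median inclusion per library was 75.1, 75.1 and 76.5% with DHT and 76.1, 74.9 and 75% with oil. The log2 ratios of libraries correlated across pairs at 0.903 to 0.909 within groups and at 0.9003 to 0.9093 between groups, and the ranges overlapped. The smallest difference detectable with 3 libraries a group is not given here. Even differences many times their SE did not pass the adjusted test, such as that of an exon of Cops3 (difference -4.12, SE 0.39, limma adjusted p 0.308).

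**Figure D3:**
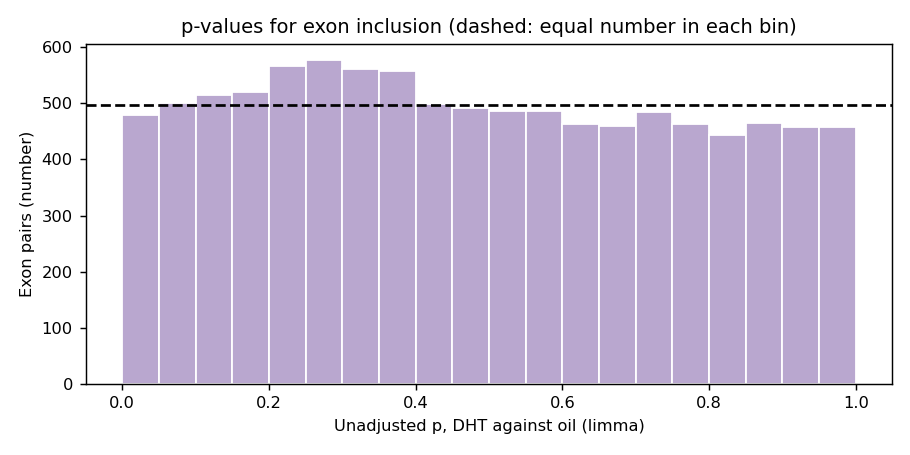
Number of exon pairs (vertical axis) by unadjusted limma p for DHT against oil (horizontal axis, classes of 0.05). The dashed line marks an equal number of pairs in every class, 496.65, and the first class holds 480.

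The exons named next had the smallest p-values among those whose groups did not overlap, 10 in each direction, and none passed the adjusted test. Of all 9933 pairs, 19 had the included form at 0 in every DHT library and above 0 in every oil library, and 26 had the reverse. For the skipped form the counts were 28 and 29. Such pairs entered through a group where the form was present, and their groups had to differ in that form.

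Among exons with higher inclusion in the DHT libraries, the first was a 24-base exon of Csnk1g3, a casein kinase 1 (chromosome 18, 53948645 to 53948668). Its inclusion was 100, 100 and 100% with DHT and 67.1, 70.1 and 60.4% with oil, because the skipped form was listed at 0 in each DHT library and at 2.74, 1.49 and 3.19 FPKM in the oil libraries. The log2 ratio was 2.67 higher (SE 0.33, unadjusted p 0.00016, limma adjusted p 0.328). A 68-base exon of Mta3, a subunit of the NuRD chromatin complex (chromosome 17, 83708399 to 83708466), had both forms in every library and an inclusion of 96.6, 98.9 and 98.3% with DHT and 82.7, 79.7 and 73.5% with oil. Its log2 ratio was 2.37 higher (SE 0.31, limma adjusted p 0.369). A 309-base exon of Wac, an adaptor of histone ubiquitination (chromosome 18, 7910516 to 7910824), also had both forms in every library, at 98.0, 92.0 and 99.7% against 81.6, 67.9 and 69.2%. In these exons every DHT library lay above every oil library.

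The skipped form was likewise listed at 0 in each DHT library for exons of Tmod1, which caps actin filaments (79.2 to 87.7% inclusion with oil), Brwd1, a bromodomain protein (69.8 to 89.6%), Aak1, a kinase of clathrin-mediated endocytosis (80.5 to 92.0%), and Cdc123, an assembly factor of a translation initiation complex (71.7 to 89.5%). The 96-base Aak1 exon was the highest of them in level, with an included form of 25.1, 14.7 and 26.8 FPKM with DHT and 9.90, 33.6 and 24.0 FPKM with oil. Included forms of Aak1 overlapped between the groups, so the groups were separated by the skipped form alone, at 2.40, 2.94 and 2.35 FPKM with oil. An exon of Tbk1, a kinase of innate immunity and autophagy, was at 98.1 to 100% with DHT and 86.3 to 92.4% with oil.

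The opposite form was at 0 for the 5218-base exon of Apc, the scaffold that marks beta-catenin for destruction (chromosome 18, 34261005 to 34266222). It was included at 67.6, 34.1 and 61.1% with DHT and was listed at 0 in each oil library, with skipped-form levels of 5.93, 7.79 and 2.95 FPKM with DHT and 2.91, 5.74 and 6.57 FPKM with oil. The log2 ratio was 3.65 higher (SE 0.60, limma adjusted p 0.669). A 28-base exon of Oxr1, an oxidation resistance gene, was included at 3.05, 0.105 and 29.7% with DHT and listed at 0 with oil, but its included form did not exceed 0.0817 FPKM in any library. The skipped form of that Oxr1 exon was at 0.0265, 0.516 and 0.193 FPKM with DHT and 3.13, 2.67 and 4.05 FPKM with oil, so the log2 ratio rested on the skipped form.

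Among exons with lower inclusion in the DHT libraries, a 161-base exon of Cops3, a subunit of the COP9 signalosome that removes Nedd8 from cullins (chromosome 11, 59830147 to 59830307), had the smallest p. It was included at 13.2, 13.5 and 2.04% with DHT and at 84.4, 88.4 and 99.5% with oil. The included form was at 0.605, 0.584 and 0.0768 FPKM against 4.43, 3.46 and 0.982 FPKM, and the skipped form at 3.99, 3.75 and 3.69 FPKM against 0.822, 0.454 and 0.00502 FPKM. Both forms were separated between the groups, in opposite directions. The log2 ratio was lower with DHT (difference -4.12, SE 0.39, unadjusted p 3.53e-05, limma adjusted p 0.308).

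Of these exons the one with the highest level was in Aldoa, the muscle and brain aldolase of glycolysis, at a 153-base exon (chromosome 7, 126797974 to 126798126, minus strand). Its inclusion was 0.732, 0.574 and 1.08% with DHT and 84.7, 39.8 and 80.8% with oil. The included form was at 1.66, 1.29 and 2.42 FPKM with DHT and 145, 73.7 and 109 FPKM with oil, while the skipped form was at 225, 224 and 221 FPKM with DHT and 26.1, 111 and 25.9 FPKM with oil. The groups did not overlap in either form, and oil library 2 held the 2 forms at the nearest levels. The sum of both forms was 227, 225 and 223 FPKM with DHT and 171, 185 and 135 FPKM with oil. The difference in the log2 ratio was -7.94 (SE 0.83, unadjusted p 6.2e-05, limma adjusted p 0.308). Without oil library 2 the difference was -8.89 with a limma adjusted p of 0.0177, and over all alternatives run the adjusted p ranged from 0.0177 to 0.794, the highest for inclusion as an untransformed percentage.

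Exons of genes for cell shape and signalling followed. The 63-base exon of Enah, an actin regulator of axon growth (chromosome 1, 181911597 to 181911659), was listed at 0 in each DHT library and included at 11.8, 12.6 and 18.6% with oil, with a skipped form between 9.997 and 15.3 FPKM in all 6 (difference in log2 ratio -2.46, SE 0.29, limma adjusted p 0.328). An 87-base exon of Lingo1, a part of the Nogo receptor complex that limits axon growth, was included at 15.7, 1.36 and 13.3% with DHT and 58.4, 67.3 and 56.9% with oil. An 18-base exon of Mapk8ip3, an adaptor of the kinesin motor (chromosome 17, 24908411 to 24908428), was included at 89.5, 78.2 and 75.6% with DHT and 99.5, 97.1 and 99.7% with oil. Each of these exons is a multiple of 3, and in each the 3 DHT libraries lay below the 3 oil libraries.

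Exons of Sh3glb1, a membrane-bending endophilin, and Praf2, a small membrane protein, had the skipped form at 0 in most or all oil libraries. Sh3glb1 was at 92.8, 58.3 and 56.2% with DHT and 100, 100 and 93.3% with oil, and Praf2 at 83.2, 74.9 and 71.5% with DHT and 100% in each oil library. The skipped form of Sh3glb1 overlapped between the groups. Its included form was at 0.710, 0.473 and 0.297 FPKM with DHT and 3.22, 3.88 and 3.29 FPKM with oil. The Sh3glb1 pair was thus lower as a whole (log2 level difference -1.76, SE 0.18, unadjusted p 5.26e-05, limma adjusted p 0.261). A 149-base exon of Slc1a2, the main glutamate transporter of astrocytes, was rare in every library, at 0.389, 0.0221 and 0.00158% with DHT and 1.86, 0.997 and 1.32% with oil, beside a skipped form of 150 to 163 FPKM. A 793-base exon of Agrn (agrin, a synapse-organising proteoglycan) was at 0.0521 to 0.0817% with DHT and 3.92 to 7.76% with oil. The included form of Agrn did not exceed 0.21 FPKM in any library. Its skipped form was at 6.73 to 7.32 FPKM with DHT and 0.843 to 3.09 FPKM with oil. The log2 ratio of Agrn thus rested mainly on the skipped form. An exon of the locus that the files label Mir29c was listed at 0 in each DHT library and at 50.1, 58.1 and 83.1% with oil. The exon of that locus is not the microRNA itself, whose level was not analysed here.

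**Figure D4:**
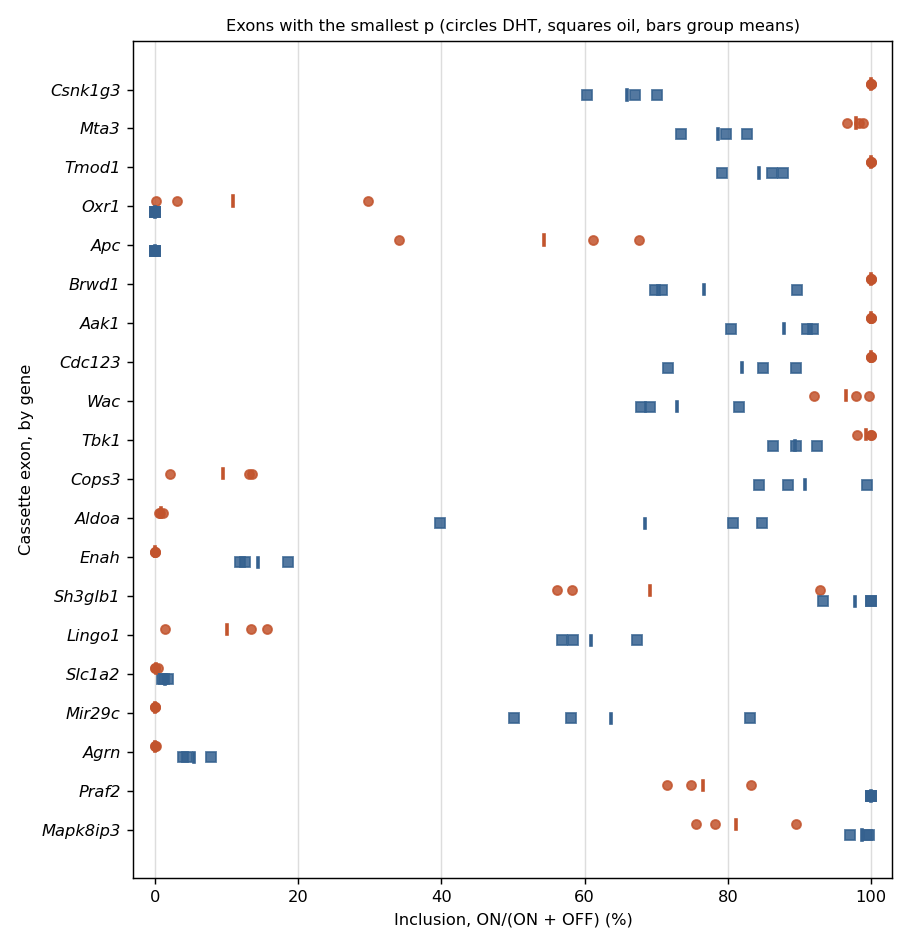
Inclusion (horizontal axis, %) in each library of the 20 exons with the smallest p among those whose groups do not overlap, 10 higher with DHT above and 10 lower below. Circles are DHT libraries, squares oil libraries and bars group means; Every DHT library lies on one side of every oil library in each exon, and none passed the adjusted test.

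Genes were then read in lists by role, counted per exon against the 4.81% of all exons with an unadjusted p under 0.05 and the 7.24% whose groups did not overlap. No exon of any list passed the adjusted test. Over all exons the share under that p was 3.22% at 1 to 2 FPKM and 6.68% at 10 to 50 FPKM. Among microexons it was 8.16%. The lists were not matched for level or exon length, and the part of these in the list shares was not tested. The list of RNA-binding splicing regulators had 144 member exons in 62 of its 76 genes, of which 13 (9.03%) had an unadjusted p under 0.05, 5 higher and 8 lower with DHT, and 13 did not overlap. The median difference in their log2 ratio was 0.04, against 0.02 over all pairs. Exons of these genes were a multiple of 3 in 39.6%, and all exons in 49.7%. The most abundant intermediate exons differed in steadiness. In Hnrnpa2b1, a nuclear RNA-binding protein, a 120-base exon was at 71.1, 80.8 and 85% with DHT and 80.8, 81.4 and 78.4% with oil. In Mbnl2, a muscleblind splicing regulator, a 54-base exon (chromosome 14, 120395712 to 120395765) was at 29.2, 18.2 and 20.4% with DHT and 21.9, 24.9 and 27.5% with oil. In Celf2 a 144-base exon ranged from 45.4 to 92.0% with DHT and from 56.4 to 81.0% with oil. All of these overlapped between the groups. A 53-base exon of Rbfox1, a neuronal splicing regulator (chromosome 16, 7391988 to 7392040), was at 0, 0 and 27.3% with DHT and 19.6, 48.8 and 34.0% with oil, with DHT library 3 inside the oil range (difference in log2 ratio -2.99, SE 1.15, unadjusted p 0.0397, limma adjusted p 0.925).

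Receptors and ion channels had 123 exons in 51 of 69 genes, with 8 (6.50%) at an unadjusted p under 0.05, 4 in each direction, and 7 (5.69%) not overlapping. The median difference was 0.10. In Grin1, the obligate subunit of NMDA receptors, the 63-base exon (chromosome 2, 25311343 to 25311405) was included at 78.7, 36.0 and 60.9% with DHT and 24.5, 15.5 and 64.4% with oil. Oil library 3 lay inside the DHT range (unadjusted p 0.178 by limma). The calcium pump gene Atp2b1 had a 154-base exon between 77.9 and 89.0% in all 6 libraries. The channel subunit gene Kcnab2 had a 45-base exon between 19.0 and 22.1% with DHT and at 25.7, 43.2 and 0.00438% with oil.

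Presynaptic genes had 166 exons in 44 of 53 genes, with 19 (11.4%) at an unadjusted p under 0.05, 11 higher and 8 lower, and 20 (12%) not overlapping. Their median difference was -0.03, and 76.5% of the exons were multiples of 3. The Nrxn3 exon of 90 bases, in a neurexin that holds the synapse together (chromosome 12, 90199147 to 90199236), was at 72.3, 76.6 and 72.0% with DHT and 81.1, 86.1 and 74.2% with oil. A 37-base exon of Dnm1, the dynamin that cuts vesicles free, was at 49.3 to 63.2% with DHT and 50.9 to 64.8% with oil. Both overlapped between the groups. The 147-base exon of Cadps, a priming factor of dense-core vesicles (chromosome 14, 12457683 to 12457829), was at 85.7, 96.5 and 81.5% with DHT and 50.3, 55.5 and 78.8% with oil. Every DHT library of Cadps was above every oil library (difference in log2 ratio 2.22, SE 0.76, unadjusted p 0.0251, limma adjusted p 0.925).

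Postsynaptic genes had 134 exons in 38 of 49 genes, of which 79.9% were multiples of 3. Among them 9 (6.72%) had an unadjusted p under 0.05, 4 higher and 5 lower, and 9 did not overlap, with a median difference of -0.02. The kinase subunit genes varied within groups. The 45-base exon of Camk2b was at 28.1, 90.5 and 94.6% with DHT and 99.9, 98.3 and 27.2% with oil, with DHT library 1 and oil library 3 far below the rest. The 63-base exon of Camk2g was at 24.8, 27.6 and 32.3% with DHT and 37.3, 34.2 and 25.3% with oil. The 24-base exon of Shank1, a scaffold of the postsynaptic density (chromosome 7, 44344298 to 44344321), was at 70.9, 51.9 and 27.5% with DHT and 35.8, 11.6 and 29.8% with oil. None of these separated the groups.

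Cytoskeleton and membrane skeleton genes had the most exons, 219 in 53 of 65 genes, with 80.4% multiples of 3. There were 18 (8.22%) with an unadjusted p under 0.05, 10 higher and 8 lower, and 20 (9.13%) did not overlap, with a median difference of 0.06. The 27-base exon of Kif1a, a kinesin of synaptic vesicle precursors (chromosome 1, 93065552 to 93065578), was at 65.5, 64.4 and 51.7% with DHT and 53.0, 57.0 and 76.2% with oil, which overlapped. In its relative Kif1b a 27-base exon (chromosome 4, 149195473 to 149195499) was at 0.104, 0.258 and 0.287% with DHT and 34.6, 43.8 and 1.60% with oil. The groups of Kif1b did not overlap, but oil library 3 lay near the DHT libraries (difference in log2 ratio -4.13, SE 1.18, unadjusted p 0.0124, limma adjusted p 0.925). The 93-base exon of Map2, a microtubule protein of dendrites, was at 59.1, 51.5 and 42.9% with DHT and 48.0, 45.9 and 55.5% with oil.

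Amyloid and tau genes had 47 exons in 13 of 19 genes, with 4 (8.51%) at an unadjusted p under 0.05, 2 in each direction, 4 not overlapping and a median difference of 0.02. The 57-base exon of App, the amyloid precursor (chromosome 16, 85040251 to 85040307), was at 21.1, 23.3 and 27.4% with DHT and 54.6, 100 and 45.5% with oil. The App values did not overlap, but the pair itself was at 16.1, 17.9 and 18.3 FPKM with DHT and 1.28, 2.88 and 12.5 FPKM with oil, so the 2 highest inclusions came from the lowest levels (difference in log2 ratio -2.45, SE 0.82, unadjusted p 0.0234, limma adjusted p 0.925). Without oil library 2 the difference was -1.52 (limma adjusted p 0.749). In Aplp2, a relative of App, a 168-base exon was at 43.3, 41.1 and 35.5% with DHT and 51.6, 55.0 and 37.4% with oil. In Bin1, a membrane-curving protein, a 108-base exon was at 43.4, 48.1 and 41.6% with DHT and 52.9, 48.5 and 51.3% with oil. The Bin1 groups did not overlap (unadjusted p 0.285 by limma), and those of Aplp2 did.

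**Figure D5:**
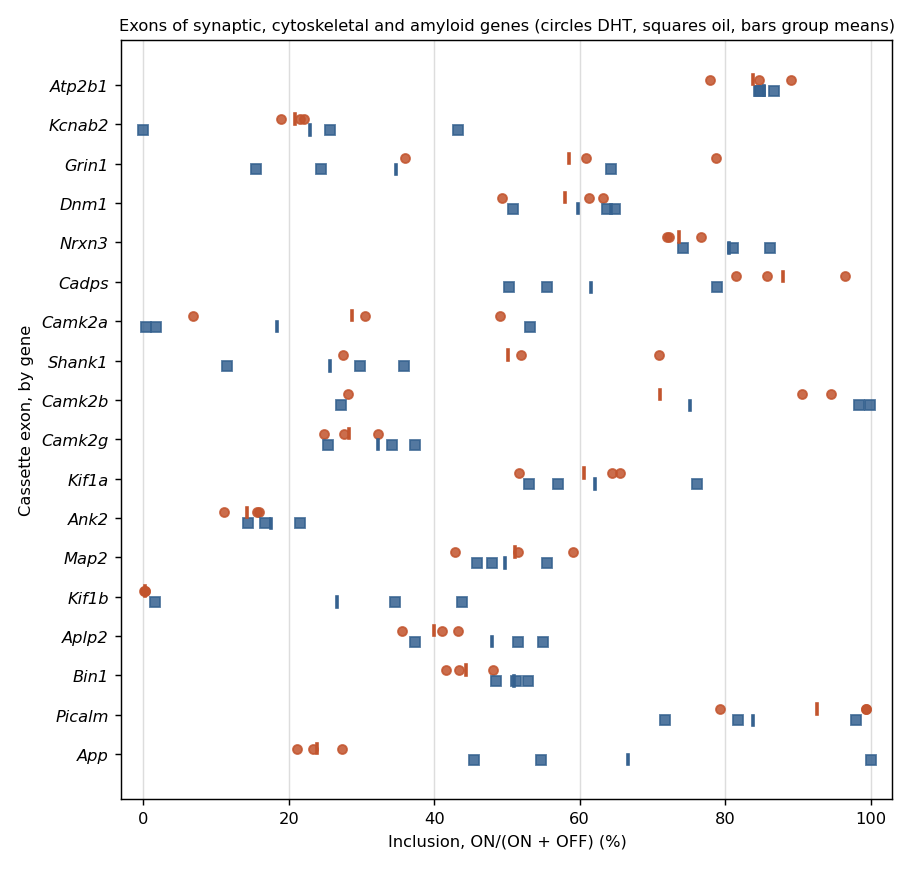
Inclusion (horizontal axis, %) in each library of abundant intermediate exons of channel, presynaptic, postsynaptic, cytoskeletal and amyloid genes, with circles for DHT libraries, squares for oil libraries and bars for group means. Map2 and Ank2 are tight and overlapping, Camk2a and Camk2b are spread in both groups, and Cadps, Kif1b and App are separated without passing the adjusted test.

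Androgen-responsive genes, steroid receptors and their cofactors, the list nearest to the treatment, had 47 exons in 23 of 46 genes. Of these 1 (2.13%) had an unadjusted p under 0.05 and 4 (8.51%) did not overlap, with a median difference of 0.09. In Ncor1, a corepressor of nuclear receptors, a 141-base exon (chromosome 11, 62349353 to 62349493) was at 9.37, 8.72 and 34.4% with DHT and 6.63, 28.7 and 18.2% with oil. In Acsl3, which activates long fatty acids and is induced by androgen in prostate, a 140-base exon was at 23.0, 16.8 and 20.4% with DHT and 54.6, 25 and 32.2% with oil. The groups of Acsl3 did not overlap (difference in log2 ratio -1.13, SE 0.53, unadjusted p 0.0735 by limma). The 59-base exon of Hmgcs1, an enzyme of cholesterol synthesis, was between 38.7 and 45.2% with DHT and between 32.7 and 43.0% with oil.

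Myelin and glial genes had 36 exons in 17 of 30 genes, with 2 (5.56%) at an unadjusted p under 0.05, both lower with DHT, and 3 (8.33%) not overlapping, with a median difference of -0.07. The 42-base exon of Ndrg2, an astrocyte gene, was at 20.8, 14.5 and 18.2% with DHT and 28, 41.3 and 15.1% with oil. The 66-base exon of Bcas1, a marker of oligodendrocytes that are forming myelin, was at 49.4, 57.3 and 44.5% with DHT and 49.7, 42.1 and 52.9% with oil. The 75-base exon of Enpp2, the enzyme autotaxin, was between 13.3 and 20.1% in all 6 libraries. In bulk tissue fewer cells of a type and less RNA per cell cannot be told apart, and a pair's inclusion mixes all cell types that express the gene.

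Among the 527 microexons 43 (8.16%) had an unadjusted p under 0.05 and 56 (10.6%) did not overlap between groups, while exons of 101 to 150 bases had 4.24% and 6.94%. Across all longer classes the shares ran from 3.79 to 6.22% and from 6.27 to 9.45%, highest in both at 28 to 50 bases. These shares are descriptions, and higher levels also went with higher shares, from 3.22% with an unadjusted p under 0.05 at 1 to 2 FPKM to 6.68% at 10 to 50 FPKM. At 50 FPKM or more the share was 9.62% of 104 exons. The part of level in the shares of microexons was not tested. The most abundant besides those of Kif1a and Shank1 was a 9-base exon of Psap, the precursor of the saposins that help lysosomal enzymes (chromosome 10, 60297537 to 60297545). It was at 11.2, 10.1 and 5.68% with DHT and 7.77, 7.57 and 8.51% with oil, which overlapped. A 12-base exon of Dnm1 (chromosome 2, 32323179 to 32323190) was at 100% to 3 digits in each library, with a skipped form no higher than 9.2e-05 FPKM.

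The summed level of both forms was tested separately, to show whether a pair moved as a whole. At an adjusted p under 0.05, 1 of 9933 pairs was called (0.0101%), and 632 (6.36%) had an unadjusted p under 0.05, 468 higher (4.71%) and 164 lower (1.65%) with DHT. After each library was centred on its median the split was 284 higher and 277 lower. The groups did not overlap in 1319 pairs (13.3%), with DHT higher in 987 (9.94%) and lower in 332 (3.34%). The median difference in log2 level was 0.06. The called pair was at a 38-base exon of Lsamp, an adhesion molecule of limbic neurons (chromosome 16, 42169461 to 42169498). Its level was 12.4, 14.0 and 15.2 FPKM with DHT and 2.14, 2.87 and 2.38 FPKM with oil (log2 difference 2.28, SE 0.15, limma adjusted p 0.0368). The rise was in the skipped form: the included form was listed at 0 in 4 libraries and did not exceed 0.585 FPKM. Inclusion was 0, 4.17 and 0% with DHT and 5.81, 0 and 0% with oil, which overlapped. Its log2 ratio was still lower with DHT (difference -2.02, SE 0.42, unadjusted p 0.00282, limma adjusted p 0.807). That difference rested on the skipped form. For the level of Lsamp, the limma adjusted p was 0.0567 after centring, and it was from 0.0615 to 0.245 when any 1 library was left out. Of the 480 pairs with an unadjusted p under 0.05 for inclusion, 157, with Lsamp among them, also had one for level, and 323 did not.

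The genes that control such exons were compared as gene values, built from first-exon and last-exon FPKM. At an adjusted p under 0.05, 2 of 11368 genes were called (0.0176%), and 834 (7.34%) had an unadjusted p under 0.05, 658 higher (5.79%) and 176 lower (1.55%). Of 76 splicing regulators 71 were found and 70 tested. None passed the adjusted test with limma, 6 had an unadjusted p under 0.05, and 35 were higher and 35 lower with DHT, with a median log2 difference of -0.01 against 0.07 over all genes. The smallest p was that of Tardbp, the RNA-binding protein TDP-43 that blocks cryptic exons. It was at 7.34, 9.58 and 6.85 FPKM with DHT and 12.3, 12.8 and 14.0 FPKM with oil, without overlap (log2 difference -0.70, SE 0.14, unadjusted p 0.00197, limma adjusted p 0.652). Rbm25, Clk4 and Ptbp3 were also lower and Srrm3 and Hnrnpa3 higher at an unadjusted p under 0.05. Srrm3, which promotes microexons, was at 7.35, 6.20 and 7.22 FPKM with DHT and 5.80, 5.05 and 5.16 FPKM with oil, and its groups did not overlap (limma adjusted p 0.656). Its relative Srrm4 was at 4.40, 3.603 and 3.11 FPKM with DHT and 3.45, 3.16 and 3.56 FPKM with oil. The gene value of Mbnl2 was 29.3, 30.0 and 29.5 FPKM with DHT and 27.6, 27.6 and 27.2 FPKM with oil, above oil in each DHT library (log2 difference 0.11, SE 0.08, unadjusted p 0.244 by limma). Values of Nova1, Nova2, Rbfox1, Ptbp1, Ptbp2, Celf4, Khdrbs3 and Elavl4 had unadjusted p-values from 0.209 to 0.768.

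Other kinds of event, kept by the same rule, differed in how they were used. The median share of the form that keeps the sequence was 73.5% for cassette pairs, 93.9% for 2169 multi-exon cassettes and 5.46% for 6801 retained introns. Both forms were above 0 in every library for 39.0, 27.2 and 21.9% of pairs. DHT against oil called 2 multi-exon cassettes (0.0922%), with 116 (5.35%) at an unadjusted p under 0.05, and 0 retained introns (0.0%), the latter with 339 (4.98%) at an unadjusted p under 0.05.

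Mapped reads per library, worked out from the circRNA scores, were 177, 167 and 143 M (mega) with DHT and 159, 154 and 156 M with oil. The depth of single exon junctions was not given, so no interval for counting error accompanies an inclusion value. Of 10 genes that mark hippocampal fields, 7 averaged at least 0.5 FPKM and 4 over 5 FPKM; the dentate marker Dsp was listed at 0 in all 6 libraries and Neurod6 in 5. Of 9 striatal markers found, 8 were over 5 FPKM, with Drd1 listed at 0. Summed striatal markers ran from 185 to 349 FPKM with DHT and from 266 to 297 FPKM with oil, and hippocampal ones from 49.2 to 61.8 and from 41.4 to 58.6 FPKM. Oligodendrocyte markers summed to 337 to 409 FPKM with DHT and 278 to 350 FPKM with oil, and choroid plexus markers to 0.939, 1.91 and 30.9 FPKM with DHT and 79.5, 14.1 and 3.37 FPKM with oil. The 3 blood markers found of 6 summed to 433, 906 and 294 FPKM with DHT and 221, 287 and 152 FPKM with oil, without overlap, with a median log2 difference of 0.68, all 3 higher, 1 at an unadjusted p under 0.05 and 0 at an adjusted one by limma. Summed markers of neurons, astrocytes, microglia and endothelium overlapped between the groups. The part of tissue make-up or blood content in the inclusion values was not tested.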

How the data were processed

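Total RNA of 3 DHT and 3 oil libraries was analysed, with groups taken from the treatment labels and replicates numbered in accession order for naming only. FPKM values of splicing events of assembled loci were deposited by the authors, per the file headers, and no annotation step beyond those headers is assumed. Back-splice junction counts and linear counts per circRNA were also deposited, with circRNAs of at least 2 reads listed, and the circRNA score is the authors' SRPBM (spliced reads scaled to mapped reads), rounded down, per the labels' protocols and the values. It was used for mapped reads only. Linear counts were not used. Per the submitters' processing notes, HISAT2 2.0.1, BWA, cutadapt and bcl2fastq 2.17.1.14 were used and the build was mm9. Not given in the sources used here are their roles, the assembler, the circRNA caller and the tool that gave FPKM. Coordinates were treated as GRCm38 from the checks in the text, and are 1-based.

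Included and skipped forms were paired in file order after gene identifiers were checked. Inclusion was tested as log2((included + 0.5)/(skipped + 0.5)), pair level as log2(sum + 0.5) and gene values as log2(FPKM + 0.5), each over all features in R 4.3.3 with limma 3.58.1 (eBayes with a mean-variance trend), with no covariate. These scales understate changes of low values. In the log2 ratio, a change in level alone can also appear as a difference where 1 form is near 0. A gene value is the larger of the first-exon and last-exon sums of a locus, added over loci of a gene, with a mean of at least 0.5 FPKM required. P-values were adjusted by the Benjamini-Hochberg method and called under 0.05. The fits were also run on simulated data with known changes added, and the outcome is not reported here. Tables were handled in Python 3.11.15 (numpy 2.4.6, pandas 2.3.3) and drawn with matplotlib 3.10.9.

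The members and lists were chosen with earlier results of these data known. Named exons were, at most 1 per gene in each group: the 10 in each direction with the smallest p among exons whose groups did not overlap, the 8 with the highest level, the 4 of intermediate inclusion with the highest level in each gene list, the 4 microexons with the highest level, the 4 widest and the 4 narrowest in range among intermediate exons of at least 10 FPKM, and those beside the level limit. Dclk2, G3bp2, Mff, Cdk19, Hdac4, Lsamp, Mcph1, Ttc3, Camk4 and the exons that are circRNAs were named after their values were seen. Some exons that this rule names are not reported here. Alternatives were another pseudocount, level limit, unit, centring, requirement on forms, 1 pair per exon, and leaving out each library.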

Additional observations from a re-analysis of the deposited data

How the results depend on the processing

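With limma, inclusion gave 0 adjusted calls under each alternative except the following. Tested as an untransformed percentage it gave 1, an exon of Mcph1 near the level limit (adjusted p 0.0332), and with 1 library left out it gave 0 to 2. Without DHT library 3 there were 2, exons of Ttc3 and Camk4 (adjusted p 0.018 each), and without oil library 2 there was 1, the Aldoa exon. DHT library 3 held the Ttc3 pair at 0.117 FPKM, against 84.3 and 48.4 FPKM in the other DHT libraries. Pairs with an unadjusted p under 0.05 were 480, and 434 to 526 with 1 library left out. They were 221 where both forms were above 0 in all 6 libraries (3869 pairs tested), 215 at a mean of at least 5 FPKM (3917 tested), where fewer pairs were tested, and 311 for the untransformed percentage, where the cause was not tested. For level, 1 call became 0 after centring and 0 to 1 with 1 library left out. The call without DHT library 3 was the Ttc3 pair and not Lsamp. Level counts of 632 at an unadjusted p under 0.05 were 303 at a mean of at least 5 FPKM and 534 to 630 with 1 library left out. Splicing regulators gave 0 adjusted calls throughout, and 4 to 7 at an unadjusted p under 0.05. Of 394 comparisons of 32 named exons and genes with their alternatives, 386 kept direction and side of the threshold, 7 lost a call (all Lsamp), 1 gained it (Aldoa) and 0 reversed. All but Lsamp were uncalled in the main fits, so keeping the side mostly meant staying uncalled. The exons and genes were picked for separated groups or small p-values, so reversals were unlikely from the start. No paired analysis was possible because the labels give the groups no shared replicate numbers. Depth behind each form is unknown.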
